A study of Rattus norvegicus with 16 samples.

Results

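The strain difference under diesel exhaust (DE) was read from 8 of the 16 left ventricle arrays of the series. Of these 8, 4 came from spontaneously hypertensive (SH) rats that inhaled DE (SH-DE) and 4 from Wistar Kyoto (WKY) rats that inhaled DE (WKY-DE). All 15866 probe sets that are not array controls, of 15923 on the array, were compared with no filter on dim ones. The other 8 arrays, 4 SH-air and 4 WKY-air, gave the strain difference in clean air and share no array with it. All rats were male, and neither strain carried a transgene. The labels give an age of 12–14 weeks. The methods give that age at purchase, before acclimatization and exposure, so the rats were older when the tissue was taken. They were exposed whole body on 5 days/week for 4 weeks, either to filtered air or to whole engine exhaust with particles at 2.0 mg/m3, for 6 hr a day by the sample labels and 4 hr by the methods. The ventricle, with the septum, was taken 1 day after the last exposure, and the methods name 4 biological replicates per group. The question was which ventricular transcripts told the hypertensive from the normotensive strain when both had breathed exhaust.

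The SH rat is an inbred strain that becomes hypertensive and later develops cardiac hypertrophy, and the WKY rat is the normotensive inbred strain derived from the same Wistar stock. The strains differ at many loci besides those that set blood pressure, so an expression difference between them can be inherited, secondary to pressure, or both, and these cannot be told apart here. DE carries carbon particles, gases and aromatic hydrocarbons, of which some bind the aryl hydrocarbon receptor and induce its targets.

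A signal is the intensity of a probe set on a linear scale, scaled on every array to a trimmed mean of 500.2. A log2 difference is the mean of log2(signal + 16.1) in SH less that in WKY, so a positive value means higher in SH, and it is damped for genes whose signals lie near or below 16.1. A probe set was called when its limma p adjusted over 15866 probe sets was under 0.05 and its unadjusted p under 0.01. Counts were made over the 12783 probe sets that read a single named gene, which cover 10411 genes. The median log2 difference of all probe sets was −0.09, and −0.00623 after quantile normalization.

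One SH-DE array stood apart. On the 84 probe sets called in air at an adjusted p under 0.01 with no overlap of the strains, each DE array was placed on a scale on which the WKY-air mean is 0% and the SH-air mean is 100%. The median position was 91.7, 88.7, 54.8 and 88.7% for SH-DE replicates 1 to 4, and 24.8, 29.6, 25.5 and 41.6% for the 4 WKY-DE arrays. SH-DE replicate 3 lay between the strains, and the other 3 SH-DE arrays lay near the SH-air mean. Among the 4 SH-DE arrays, replicate 3 was the one nearest to WKY-DE on 59 of the 84 probe sets, against 4, 9 and 12 for the others. On the 71 of these probe sets with a mean signal of 200 or more its median position was 53.3%. Probe sets chosen for their distance in air can draw arrays of other rats toward the middle. This bears on all 8 DE arrays, and its size on each was not measured. The mean log2 level of the atrial markers was also higher on this array, 9.53 against 8.10 to 8.78 on the other SH-DE arrays. Whether RNA of both strains was present in this sample, and the part of atrial content in its position, was not tested. The results below rest on all 4 SH-DE arrays, and values without replicate 3 stand beside them.

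**Figure D1:**
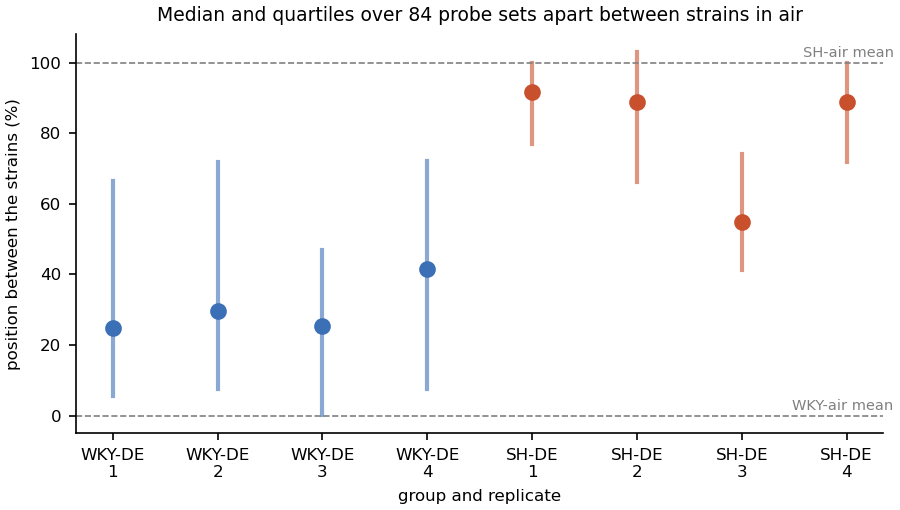
Position of each DE array between the strains in air, in percent (WKY-air mean 0, SH-air mean 100), as the median (dot) and quartiles (line) over 84 probe sets. SH-DE replicate 3 sits at 54.8%, and the other 3 SH-DE arrays at 88.7 to 91.7%.

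Between SH-DE and WKY-DE, 90 probe sets on 85 genes were called, 0.704% of those counted. Of these, 54 were higher in SH-DE (0.422%) and 36 lower (0.282%). After quantile normalization 69 were higher and 29 lower. In 89 of the 90 the 4 SH-DE values did not overlap the 4 WKY-DE values, against 8.81% of all probe sets counted. The calls were made on these same arrays and favour groups that lie apart, so this is a description and not separate support. The difference was 2-fold or more in 45, with 29 higher and 16 lower. Without SH-DE replicate 3 the call reached 166 probe sets (1.3%), 79 higher (0.618%) and 87 lower (0.681%). These held 77 of the 90, and 72 of the 90 had a larger difference. The count was 55 without SH-DE replicate 1, 48 without SH-DE replicate 2, 47 without WKY-DE replicate 1 and 49 without WKY-DE replicate 4. With the atrial marker level of each array as a covariate 51 were called, 48 of them among the 90.

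The difference with the lowest p was in Eno1, the glycolytic enzyme enolase 1. Its signals were 2826, 3142, 2846 and 2970.2 in the WKY-DE rats and 10732, 10084, 7333 and 9230.4 in the SH-DE rats (log2 difference 1.65, SE 0.11, adjusted p = 3.93e-06). The lowest SH-DE value, on replicate 3, was still more than any WKY-DE value, and the log2 difference in air was 1.48. Eno1 was the only one of 30 measured glycolysis, glycogen and pyruvate dehydrogenase genes to be called, and the median of that list was −0.07, the same as over all genes.

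Both called members of the 25 measured genes of epoxide and arachidonic acid metabolism were higher in SH-DE. Ephx2, the soluble epoxide hydrolase that breaks down vasodilator epoxides of arachidonic acid, had signals of 359, 325, 409 and 265 in WKY-DE and 1172, 1390.5, 756 and 1273 in SH-DE (log2 difference 1.69, SE 0.19, adjusted p = 0.000545). Pla2g12a, a secreted phospholipase A2, had signals of 96.3, 122, 164 and 147 in WKY-DE and 734, 856, 519 and 754 in SH-DE (log2 difference 2.30, SE 0.26, adjusted p = 0.000545). For both genes replicate 3 was the lowest SH-DE rat and lay outside the WKY-DE range. No other gene of the list passed the test, and its median was −0.07.

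Lad1, which encodes the basement membrane filament protein ladinin 1, was at 138, 141, 90.1 and 117 in WKY-DE and 704, 710.5, 401 and 599 in SH-DE (log2 difference 2.15, SE 0.26, adjusted p = 0.00104). The carboxylesterase gene Ces1c was at 71, 79.2, 125 and 49.1 in WKY-DE and 312, 275, 228 and 458 in SH-DE (log2 difference 1.79, adjusted p = 0.0062). The leucine zipper transcription factor Cebpb was at 144, 132, 105 and 38 in WKY-DE and 333, 340.0, 304 and 361 in SH-DE (log2 difference 1.65, adjusted p = 0.00633). The SH-DE values of Cebpb spread little and those of WKY-DE widely, and the groups of all 3 genes were apart, as the naming rule required.

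**Figure D2:**
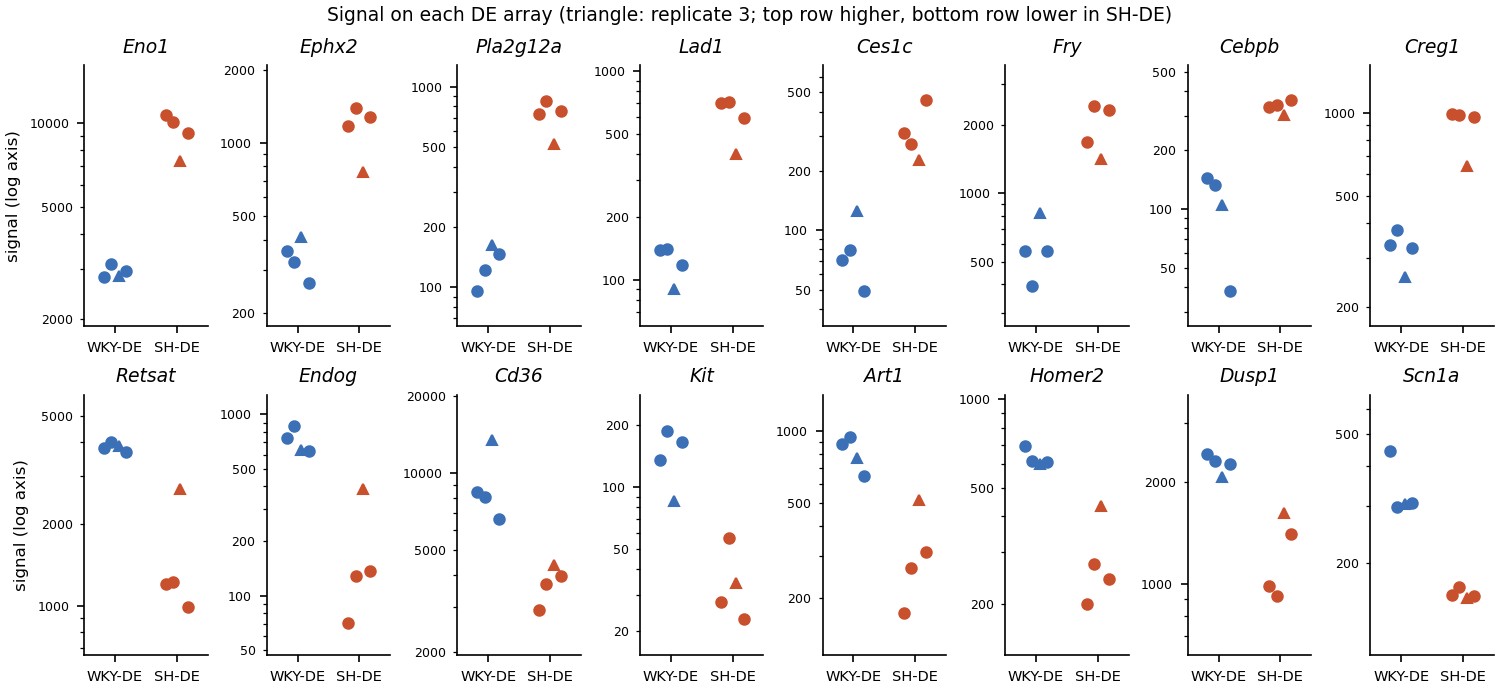
Signal of 16 called genes on each of the 4 WKY-DE and 4 SH-DE arrays, on log axes that differ between panels (top row higher, bottom row lower in SH-DE). Triangles mark replicate 3 of each group, and groups that do not overlap were a condition of the rule that named most of these genes.

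Fry, whose protein binds microtubules, was read by 2 probe sets. One gave 562, 395, 823 and 561 in WKY-DE and 1675, 2423, 1415 and 2321 in SH-DE (log2 difference 1.73, adjusted p = 0.00104), and the other, dimmer one gave a log2 difference of −0.84 (adjusted p = 0.332). Creg1, a secreted glycoprotein found in lysosomes, was at 334, 379, 256 and 324 in WKY-DE and 988, 981, 643 and 964 in SH-DE (log2 difference 1.42, SE 0.18, adjusted p = 0.00125), and its second probe set at a log2 difference of 0.64 (adjusted p = 0.33). It was the only one of 32 lysosomal genes called. Akip1, which encodes a binding partner of the protein kinase A catalytic subunit, had 7 probe sets, of which 4 were called, at log2 differences of 0.85 to 1.53. The probe set of Anxa3 that was called (log2 difference 1.45) read only 6.35 to 10.1 in WKY-DE and 42.7 to 71.9 in SH-DE, the former below the offset, while the brightest probe set of this annexin read 1316 to 1434 and 1298 to 1904 (log2 difference 0.23, adjusted p = 0.469).

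Several genes of metabolism and defence were higher in SH-DE. Bdh1, the mitochondrial enzyme that interconverts the ketone bodies, was at 389, 266, 303 and 376 in WKY-DE and 876, 929, 751 and 747 in SH-DE (log2 difference 1.28, SE 0.18, adjusted p = 0.00253). Srxn1, sulfiredoxin, which restores overoxidized peroxiredoxins, was at 62.5, 145, 133 and 57.9 in WKY-DE and 179.7, 249, 288 and 267 in SH-DE (log2 difference 1.25, SE 0.26, adjusted p = 0.0395), and it was the only one of 47 antioxidant and glutathione genes called. The adjusted p of Srxn1 was 0.0694 without SH-DE replicate 3. Il2rb, the beta chain of the interleukin-2 receptor, was at 206, 217, 207 and 249 in WKY-DE and 627, 553, 370.1 and 596 in SH-DE (log2 difference 1.21, SE 0.16, adjusted p = 0.00131), and it was the 1 call among 51 interleukin, chemokine and receptor genes. Tfpi, the inhibitor of the tissue factor pathway of coagulation, was at 504, 479.7, 615 and 485 in WKY-DE and 1158, 1213, 722 and 1515 in SH-DE (log2 difference 1.08, SE 0.19, adjusted p = 0.0139), the 1 call among 21 listed coagulation and fibrinolysis genes. That count leaves out the call of Cpb2, which was lower in SH-DE and is given below. C18h5orf63, which encodes a glutaredoxin-like protein, differed by 1.30 on the log2 scale (adjusted p = 0.00512).

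Among the genes lower in SH-DE, Retsat, the retinol saturase, was at 3806, 3995, 3871 and 3687 in WKY-DE and 1208, 1228, 2697 and 988 in SH-DE (log2 difference −1.43, SE 0.23, adjusted p = 0.00565). SH-DE replicate 3 was well above the other SH-DE rats but under every WKY-DE rat, and without it the log2 difference was −1.74 (adjusted p = 2.09e-06). The mitochondrial nuclease gene Endog was at 739.5, 857, 632 and 624 in WKY-DE and 70.3, 128, 388 and 137 in SH-DE (log2 difference −2.12, SE 0.35, adjusted p = 0.00837). Here too replicate 3 held the highest SH-DE value, and without it the log2 difference was −2.54 (adjusted p = 0.000101).

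Cd36, the fatty acid transporter known to be defective in SH rat lines, was at 8472, 8059, 13527 and 6628 in WKY-DE and 2923, 3694, 4374 and 3972 in SH-DE (log2 difference −1.25, SE 0.21, adjusted p = 0.00879). The highest SH-DE value stood well under the lowest WKY-DE value. Of the 39 measured genes of fatty acid uptake and oxidation, Bdh1 was called higher and Cd36 lower, and the list median was 0.10 against −0.07 over all genes. Of the 8 measured genes that lie at blood pressure, heart mass or metabolic loci of the SH rat, Ephx2 was called higher and Endog and Cd36 lower, against 0.682% of all genes. This list was drawn up with earlier results of these data known, so its count is not independent evidence.

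Art1, an ADP-ribosyltransferase of the muscle cell surface, was called lower by both of its probe sets (log2 differences −1.40 and −0.88). By the first its signals were 876, 944, 769 and 648 in WKY-DE and 174, 267, 513 and 311 in SH-DE. Homer2, which encodes a postsynaptic and muscle scaffold protein, was at 693, 615, 602 and 613 in WKY-DE and 201, 275, 433 and 243 in SH-DE (log2 difference −1.14, SE 0.18, adjusted p = 0.00599). Dusp1, the immediate early phosphatase of MAP kinases, was at 2436, 2325, 2079.9 and 2269 in WKY-DE and 986, 919, 1628 and 1404 in SH-DE (log2 difference −0.91, SE 0.17, adjusted p = 0.0208), the only one of 28 immediate early genes called.

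Kit, the stem cell factor receptor that mast cells carry, was at 136, 189, 86.1 and 166 in WKY-DE and 27.6, 56.4, 34.3 and 22.8 in SH-DE (log2 difference −1.64, SE 0.32, adjusted p = 0.0272). None of the other 8 measured mast cell markers was called, and their list had a median of −0.42, with Tpsab1 at 1.46 and Fcer1a at −0.97. In whole tissue, fewer cells of a type and less RNA per cell cannot be told apart. Hal, the histidine ammonia-lyase, was at 137, 219, 155 and 135 in WKY-DE and 42.5, 30.3, 33.9 and 45.9 in SH-DE (log2 difference −1.70, adjusted p = 0.0355). Dmbt1, a secreted scavenger receptor, was at 158, 139.7, 194 and 183 in WKY-DE and 28.9, 53.8, 91 and 26.6 in SH-DE (log2 difference −1.58, adjusted p = 0.0112). Adcyap1r1, the receptor for the peptide PACAP, was lower by 1 of its 4 probe sets (log2 difference −1.28), and the other 3 lay between −0.26 and 0.11. Without SH-DE replicate 3 the adjusted p of Hal was 0.056 and that of Adcyap1r1 0.0695.

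For 3 genes called lower, the second probe set did not follow. Ythdf2, a reader of methylated adenosine in mRNA, was at 692, 700.5, 1067 and 524 in WKY-DE and 59.7, 160.2, 352 and 146 in SH-DE by one (log2 difference −2.14, adjusted p = 0.00962) and had a log2 difference of −0.26 by the other (adjusted p = 0.385). Mef2d, a transcription factor of muscle, gave −1.41 and −0.10, and Smad1, a transducer of bone morphogenetic protein signals, gave −1.06 and 0.00. For these genes the call rests on 1 probe set. This holds for most called genes, as the 90 calls lay on 85 genes. The part of strain differences in the probed sequence was not tested for any of them. With SH-DE replicate 3 left out the adjusted p was 0.0597 for Mef2d and 0.0599 for Smad1.

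The histocompatibility genes of the RT1 complex held the largest called difference in each direction. RT1-CE16, a class I gene, was at 119.9, 67.4, 50.3 and 113 in WKY-DE and 732, 797, 243 and 702 in SH-DE (log2 difference 2.54, SE 0.32, adjusted p = 0.00125). RT1-CE5, another class I gene, had 5 probe sets. One read 204, 166, 210.2 and 119 in WKY-DE and 2.45, 6.41, 70.5 and 3.83 in SH-DE (log2 difference −2.68, adjusted p = 0.00278), a second was called at −2.61, and the brightest gave −1.10 (adjusted p = 0.0789). RT1-Ba, a class II alpha chain gene, was called higher in SH-DE by a probe set that was named after its values were seen (log2 difference 2.35), the 1 call whose groups overlapped, and measured −1.01 by the brighter other (adjusted p = 0.0919). RT1-DMb, which encodes a chain of the class II peptide loader, was at 1525, 1234, 1191 and 1359 in WKY-DE and 715, 866, 963 and 859.7 in SH-DE (log2 difference −0.63, SE 0.14, adjusted p = 0.0495). By the brightest probe set of each gene, 1 of 18 class I and loading genes was called higher and 1 of 8 class II genes lower. RT1 genes are near-identical and differ in number and sequence between strains, so their levels are uncertain.

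The upstream sequences of 4 genes called in the same direction under DE and in air are printed below, the 2 of lowest p in each direction with 1 promoter entry. Each run holds 250 bases before the annotated start, on the gene's strand, from RefSeq on GRCr8, whose reference rat is of neither strain. Capitals mark GCGTG, the core bound by the aryl hydrocarbon receptor, CCAAT and TATAAA, each on either strand (the reverse of GCGTG reads CACGC). They mark letters, not sites in use.
Pla2g12a (chr2:221110472-221110721, plus strand): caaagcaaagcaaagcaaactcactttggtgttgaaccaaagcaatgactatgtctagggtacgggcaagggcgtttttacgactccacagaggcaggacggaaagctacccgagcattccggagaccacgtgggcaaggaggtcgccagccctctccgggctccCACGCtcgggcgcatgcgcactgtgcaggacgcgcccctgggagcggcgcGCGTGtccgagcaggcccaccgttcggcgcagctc
Lad1 (chr13:49801097-49801346, plus strand): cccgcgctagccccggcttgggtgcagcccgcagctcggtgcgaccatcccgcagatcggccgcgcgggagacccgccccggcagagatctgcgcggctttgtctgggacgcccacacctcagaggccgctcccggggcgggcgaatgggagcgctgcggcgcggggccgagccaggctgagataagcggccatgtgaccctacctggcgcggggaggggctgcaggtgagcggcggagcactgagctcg
Retsat (chr4:106211209-106211458, plus strand): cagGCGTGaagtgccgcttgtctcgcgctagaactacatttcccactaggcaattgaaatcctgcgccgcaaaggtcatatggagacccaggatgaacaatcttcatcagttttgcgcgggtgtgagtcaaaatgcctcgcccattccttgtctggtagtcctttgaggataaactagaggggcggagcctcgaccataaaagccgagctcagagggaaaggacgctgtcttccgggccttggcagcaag
Endog (chr3:33846685-33846934, plus strand): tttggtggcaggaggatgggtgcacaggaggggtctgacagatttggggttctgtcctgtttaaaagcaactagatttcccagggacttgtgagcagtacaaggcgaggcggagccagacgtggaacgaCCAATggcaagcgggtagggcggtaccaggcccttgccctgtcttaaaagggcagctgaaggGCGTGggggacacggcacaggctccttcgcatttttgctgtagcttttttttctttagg
GCGTG was found in 3 of these 4 windows and in 25.9% of 33469 windows of this length, CCAAT in 1 of 4 and in 34.0%, and TATAAA in none of 4 and in 12.9%. The Lad1 window held none of the 3.

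In all, the 42 gene lists held 838 measured genes, of which 16 were called, and 28 lists had no call. Over all 10411 genes, by the brightest probe set of each, 0.682% were called. The medians of the lists ran from −0.42 to 0.22. No gene was called among 18 of the tricarboxylic acid cycle, 58 nuclear genes of the respiratory chain, 24 of calcium handling, 25 potassium and sodium channels, 29 of vascular tone, 14 clock genes, 21 interferon-induced genes, 26 heat shock proteins and chaperones, 32 cytosolic ribosomal proteins or 31 proteasome subunits. These counts cover listed members only, and Scn1a, a sodium channel gene called lower and given below, was not on the channel list. The count of list genes called was 10 without WKY-DE replicate 1 or 4 and 28 without SH-DE replicate 3. Without SH-DE replicate 3 the vascular tone, clock and interferon-induced lists each had 1 gene called lower. The heat shock and chaperone list then had 1 called higher.

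Of 18 collagen genes measured, Col15a1, of the basement membrane zone, was lower in SH-DE, at 2315, 1768, 1806 and 2024 against 1295, 1115, 1339.8 and 1139 (log2 difference −0.68, SE 0.13, adjusted p = 0.0174). The median of the collagens was −0.04 under DE and −0.56 in air, where 6 were called lower. None of 40 other matrix genes was called under DE, with a median of −0.07, against 9 lower and a median of −0.44 in air. Of 13 fibroblast markers none was called under DE (median −0.06), and 7 were lower and 1 higher in air (median −0.55). Over all probe sets counted, 0.282% were called lower under DE and 1.82% in air. The strain difference under DE less that in air was also tested with limma, as described below. No member of these lists was called in that test. Its unadjusted p was under 0.05 for 6 collagens, 14 other matrix genes and 9 fibroblast markers, and the lists share genes. The counts of calls therefore do not show that these strain differences were lost under DE. In air the atrial marker level differed between the strains with no overlap. With it as a covariate none of the collagens, other matrix genes or fibroblast markers was called in air, and their medians were −0.16, −0.18 and −0.17. The same covariate took the air calls over all probe sets counted from 401 to 7, so the loss was not particular to these lists. Atrial level and strain cannot be told apart in air. The lists of 18 metalloproteinases and their inhibitors and of 26 TGF-β signaling genes had no call under DE by the brightest probe set of each gene. The dimmer probe set of Smad1, a member of the latter list, was called lower, as given above.

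**Figure D3:**
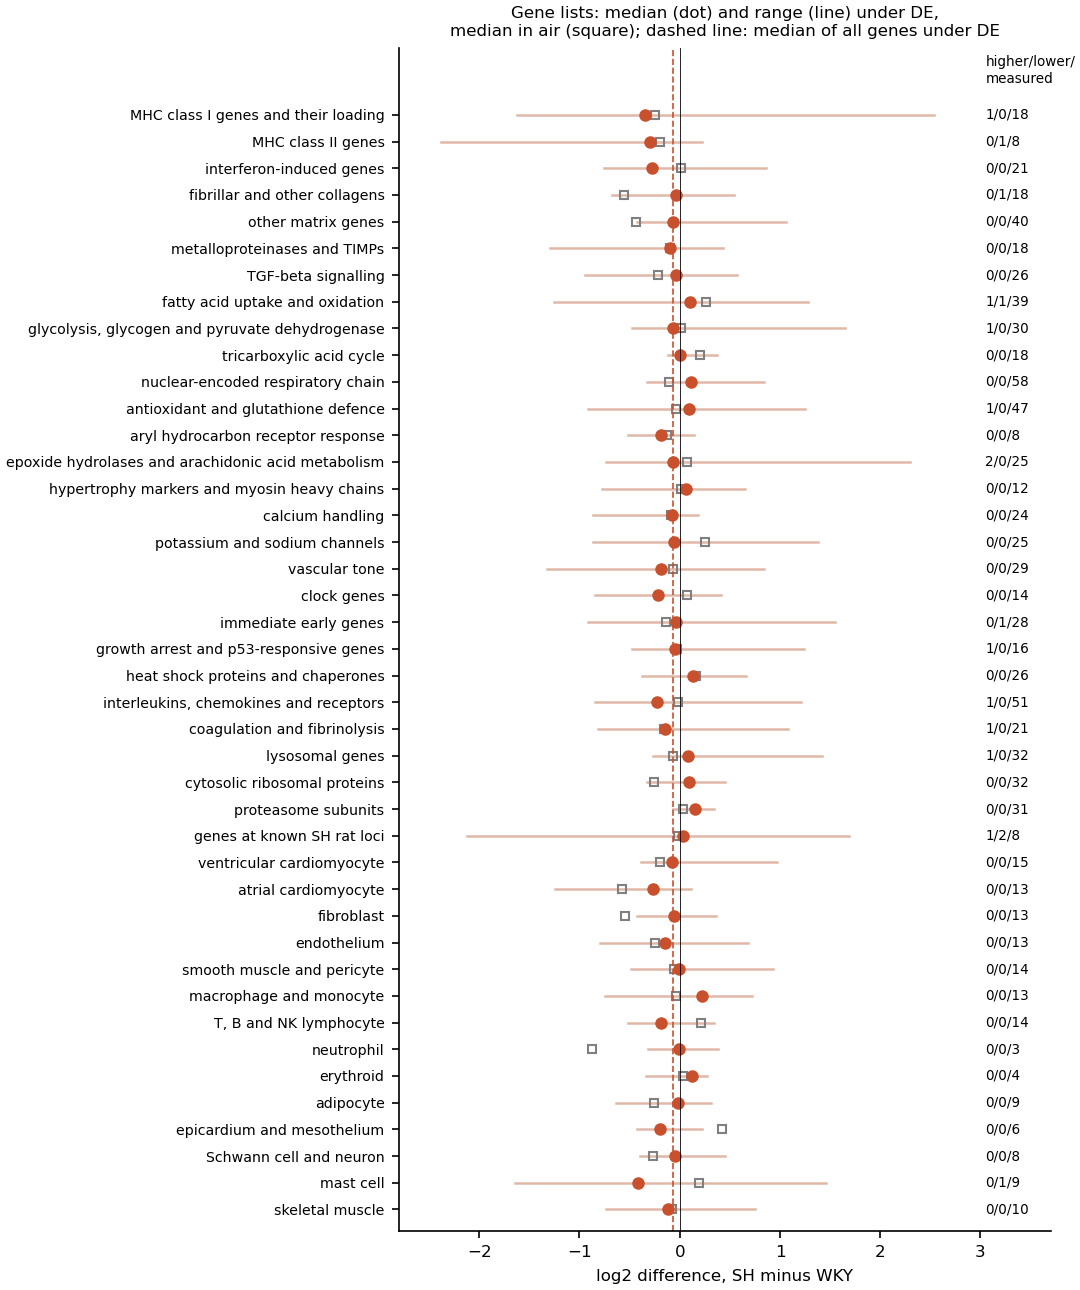
Median log2 difference SH minus WKY of each gene list under DE (dot) and in air (square), with the range of its members under DE (line). Numbers at the right give members called higher, called lower and measured, and the dashed line is the median of all genes under DE, −0.07.

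Of the 14 lists of cell type markers, 13 had no call under DE, Kit being the exception. Without SH-DE replicate 3 the atrial and the endothelium lists each had 1 marker called lower. The 15 ventricular cardiomyocyte markers had a median of −0.08 and a summed signal of 277676 to 391913 in WKY-DE and 281835 to 338499 in SH-DE. The 13 atrial markers had a median of −0.27 and summed to 23476 to 56361.5 in WKY-DE and 24283 to 45749 in SH-DE. Myl7, the atrial myosin light chain, named after its values were seen, read 657, 404, 9629.5 and 2926 in WKY-DE and 94.2, 1443, 7876 and 187 in SH-DE, a spread within each group that exceeded the difference (adjusted p = 0.7). The atrial level was highest on replicate 3 of both groups, with a mean over the markers of 9.53 on the log2 scale in SH-DE and 9.78 in WKY-DE. It was 8.10 to 8.78 on the other SH-DE arrays and 8.56 to 9.22 on the other WKY-DE arrays. In air it was 9.28 to 10.17 in WKY and 8.02 to 8.35 in SH, with no overlap of the strains, while the DE groups overlapped, and its part in the differences beyond the covariate fit was not tested. The macrophage list had the highest median under DE, 0.22, with no member called. This rank did not hold throughout. Its median was 0.13 without SH-DE replicate 3, under 0.17 for the proteasome list. After quantile normalization it was 0.14, under 0.21 for the erythroid list.

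Other called genes lie outside the naming rule and were chosen after their values were seen. Cox14, an assembly factor of cytochrome oxidase, was at 1275, 1971, 1108 and 1624 in WKY-DE and 2493, 2712, 2212 and 2449.7 in SH-DE (log2 difference 0.75, adjusted p = 0.0495). Isca1, of mitochondrial iron-sulfur cluster assembly, was at 892, 883, 1112 and 856 in WKY-DE and 1490.1, 1854, 1499.5 and 1439.6 in SH-DE (log2 difference 0.74, adjusted p = 0.0132). Mrps18a and Dap3, of the mitochondrial ribosome, differed by 0.78 and 0.49. None of the 58 listed respiratory chain genes was called, and no list held the mitochondrial ribosome. The adjusted p of Dap3 was 0.0782 without SH-DE replicate 3.

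Also outside the rule, 5 further genes were higher in SH-DE. Csnk2a1, the catalytic subunit of casein kinase 2, differed by 1.02 (adjusted p = 0.00329), and Rras2, a small GTPase of the Ras family, by 0.95 (adjusted p = 0.00599). Enah, a regulator of actin filaments, differed by 1.01 and Lrrc10, a leucine-rich repeat protein of cardiomyocytes, by 0.56. St3gal5, the synthase of the ganglioside GM3, was at 1272, 1350.0, 1214 and 900.1 in WKY-DE and 2112, 2309.7, 1994 and 1975 in SH-DE (log2 difference 0.83, adjusted p = 0.00546). Lower in SH-DE were Synm, the intermediate filament synemin, at −0.74, Lmo7, a protein of cell junctions, at −0.63, and the transcription factor Prox1, at −0.62. Msra, the methionine sulfoxide reductase, was at 284, 343, 265 and 311 in WKY-DE and 184, 105, 178 and 186 in SH-DE (log2 difference −0.84, adjusted p = 0.033). Scn1a, a sodium channel subunit, was at 443, 297, 304 and 306 in WKY-DE and 159, 168, 155 and 157 in SH-DE (log2 difference −0.99, adjusted p = 0.00392).

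In air 401 probe sets on 380 genes were called between the strains (3.14%), 168 higher (1.31%) and 233 lower (1.82%) in SH-air. The 2 comparisons share no array but share the pooled spread of the model. The air count was 231, 226 and 197 without SH-air replicates 1, 2 and 4, and 254 and 208 without WKY-air replicates 1 and 4. With the atrial marker level as a covariate it was 7, 5 higher and 2 lower, and 6 of these were among the 401. As that level did not overlap between the strains in air, atrial tissue and strain cannot be told apart there. Both made 42 calls, which are 46.7% of the DE list and 10.5% of the air list, and 41 of them had the same direction, 29 higher and 12 lower in SH. Without SH-DE replicate 3 both made 84 calls, 83 in the same direction, and without SH-DE replicate 2 both made 26. With the atrial covariate both made 5, all among the 42. With each pair of groups fitted alone, 19 probe sets were called under DE, 135 in air and 8 in both, all 8 higher in SH. Of the 90 DE calls, 77 had the same sign in air (85.6%), against 53.6% of all probe sets. Over all probe sets, which are not independent, the correlation of the log2 differences was 0.157.

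The shared set held genes of metabolism, signaling and transport named above, given here by their log2 differences. Eno1 differed by 1.65 under DE and 1.48 in air, Ephx2 by 1.69 and 2.15, and Lad1 by 2.15 and 2.02. Il2rb differed by 1.21 and 1.79, Tfpi by 1.08 and 1.05, and Bdh1 by 1.28 and 1.11. Among those lower in SH, Cd36 differed by −1.25 and −1.05, Retsat by −1.43 and −1.85, Endog by −2.12 and −2.68, and Dusp1 by −0.91 and −0.86. Each of these 10 genes was called in both comparisons, and with the atrial covariate 8 were called under DE and 3 in air (Eno1, Ephx2 and Il2rb).

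**Figure D4:**
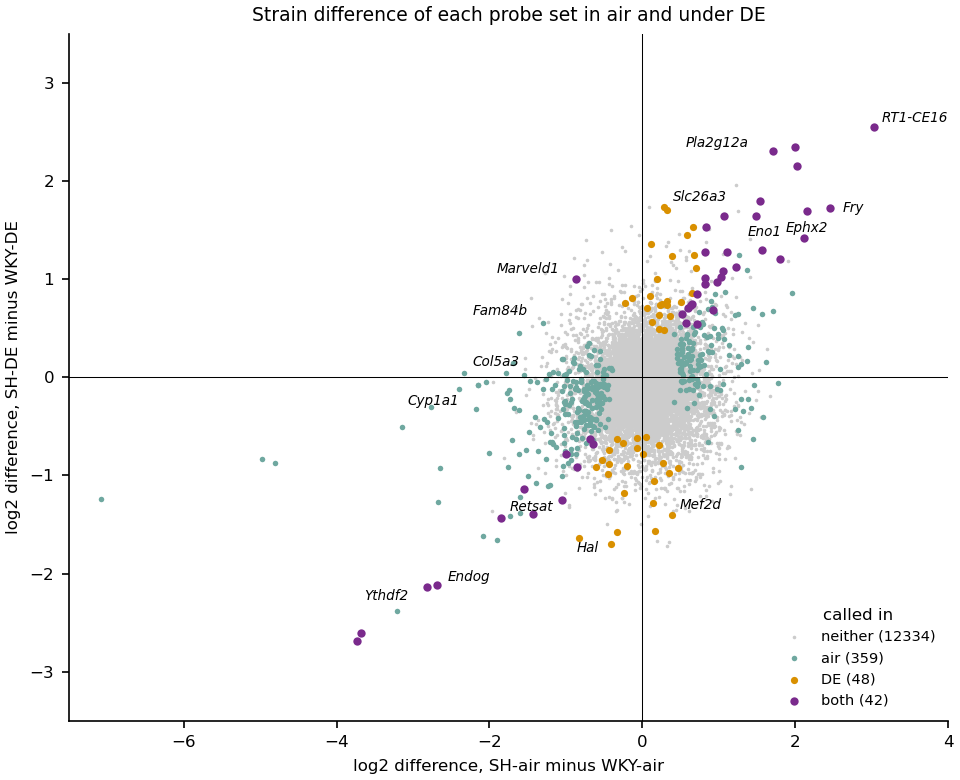
Log2 difference SH minus WKY of 12783 probe sets in air (x axis) and under DE (y axis), coloured by the comparison that called them. Of the 42 called in both, 41 lie in the quadrants of like sign, and Marveld1 is the exception.

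Of the 90 DE calls, 48 were not called in air. Passing one test and missing the other does not show a difference between the settings, so the strain difference under DE less that in air was itself tested. It contains the DE difference by which the 90 were chosen, so their p-values in it are not set against those of other probe sets. In that test 1 of the 12783 probe sets counted was called (0.00782%). Of all 15866 probe sets, 1976 had an unadjusted p under 0.05. The call was Fam84b, which was not called under DE. The count of calls in it was 6 without SH-air replicate 3, 5 without WKY-air replicate 2 and 3 without SH-DE replicate 4 or WKY-DE replicate 1, and it was 0 without SH-air replicate 2 or 4, SH-DE replicate 1 or 3, WKY-air replicate 4, or WKY-DE replicate 2 or 3.

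Slc26a3, a chloride and bicarbonate exchanger, was at 14.6, 16.7, 17.4 and 12 in WKY-DE and 80.0, 85.5, 90.7 and 95.3 in SH-DE (log2 difference 1.73, SE 0.25, adjusted p = 0.00278). Its WKY-DE signals lay at about the offset, so the fold is damped. In air the strains differed by 0.29 on the log2 scale. C2h1orf52, a gene of unnamed function, was at 141, 70.3, 115 and 45.5 in WKY-DE and 318, 284, 271 and 411 in SH-DE (log2 difference 1.70, adjusted p = 0.0063), against 0.33 in air. Krt6c, a keratin, was called by 1 of its 3 probe sets, at signals of 5.58 to 12.6 in WKY-DE and 35.1 to 57.4 in SH-DE, and its adjusted p without SH-DE replicate 3 was 0.0695.

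Mrps12, of the mitochondrial ribosome, was at 750.3, 831, 648 and 698 in WKY-DE and 1224, 1227, 1361 and 1164 in SH-DE (log2 difference 0.76, SE 0.11, adjusted p = 0.00421), against an air difference of −0.23. Snrpd2, a core protein of the spliceosome, was at 925, 1133, 946 and 981 in WKY-DE and 1789, 1729, 1745 and 1726 in SH-DE (log2 difference 0.81, SE 0.13, adjusted p = 0.00546), against −0.14 in air. The values of each gene lay close together within a group. Gadd45g, a growth arrest gene, was at 244, 179, 214 and 231 in WKY-DE and 512, 661, 388 and 601 in SH-DE (log2 difference 1.24, SE 0.18, adjusted p = 0.00354), against 0.39 in air. The adjusted p of the difference between settings was 0.077 for Mrps12, 0.107 for Snrpd2 and 0.236 for Gadd45g.

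Among genes called lower in SH-DE and not called in air were Cpb2, a carboxypeptidase that slows fibrinolysis, at 164, 123, 111 and 175 in WKY-DE and 30.5, 19.4, 30.4 and 86.2 in SH-DE (log2 difference −1.57, SE 0.28, adjusted p = 0.0128), and Spry2, an inhibitor of receptor tyrosine kinase signals, at 281, 262, 328 and 245 in WKY-DE and 78.3, 189, 112 and 182 in SH-DE (log2 difference −0.98, SE 0.20, adjusted p = 0.0375). Khk, which phosphorylates fructose, was at 97.6, 109, 139.9 and 118 in WKY-DE and 77.3, 67.5, 39 and 37.4 in SH-DE (log2 difference −0.92), with the adjusted p just under its limit. Svop, a synaptic vesicle protein, was at 47.3, 49.2, 54.1 and 93.4 in WKY-DE and 14.4, 9.97, 17.4 and 29.2 in SH-DE (log2 difference −1.18, adjusted p = 0.047). In air the differences were 0.16 for Cpb2, 0.34 for Spry2, 0.47 for Khk and −0.24 for Svop. One part of the naming rule picked called genes for a small or opposite air difference. The air values of these genes, and of Slc26a3, C2h1orf52 and those named after them, are therefore not separate support. None of them was called in the difference between settings. Without SH-DE replicate 3 the adjusted p was 0.0675 for Spry2, 0.0877 for Khk and 0.0643 for Svop.

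Marveld1, a membrane protein of the MARVEL family, was the gene called in opposite directions. Its signals were 332, 302, 389.7 and 279.6 in WKY-DE and 636, 887, 754 and 455 in SH-DE (log2 difference 1.00, adjusted p = 0.0484), and 736, 848, 1029.5 and 963 in WKY-air and 649, 371, 565 and 377 in SH-air (−0.87, adjusted p = 0.0426). The second probe set gave −0.42 and 0.38, with signs the other way round. The adjusted p of the difference between settings for the first was 0.077, and that of its DE difference without SH-DE replicate 3 was 0.0794.

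Set by strain, the change from air to DE was −1.16 in WKY and 0.29 in SH for Slc26a3, −1.78 and −0.40 for C2h1orf52, and −0.87 and 0.11 for Mrps12. It was −1.41 and 0.47 for Marveld1 and 1.14 and −0.18 for Spry2. It was −0.40 and 0.54 for Snrpd2, 0.83 and −0.55 for Khk, 1.00 and −0.80 for Mef2d, and −0.22 and 1.01 for Krt6c. These contrasts share arrays with the strain contrasts by which the genes were named, so the values are a description, given with no test.

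**Figure D5:**
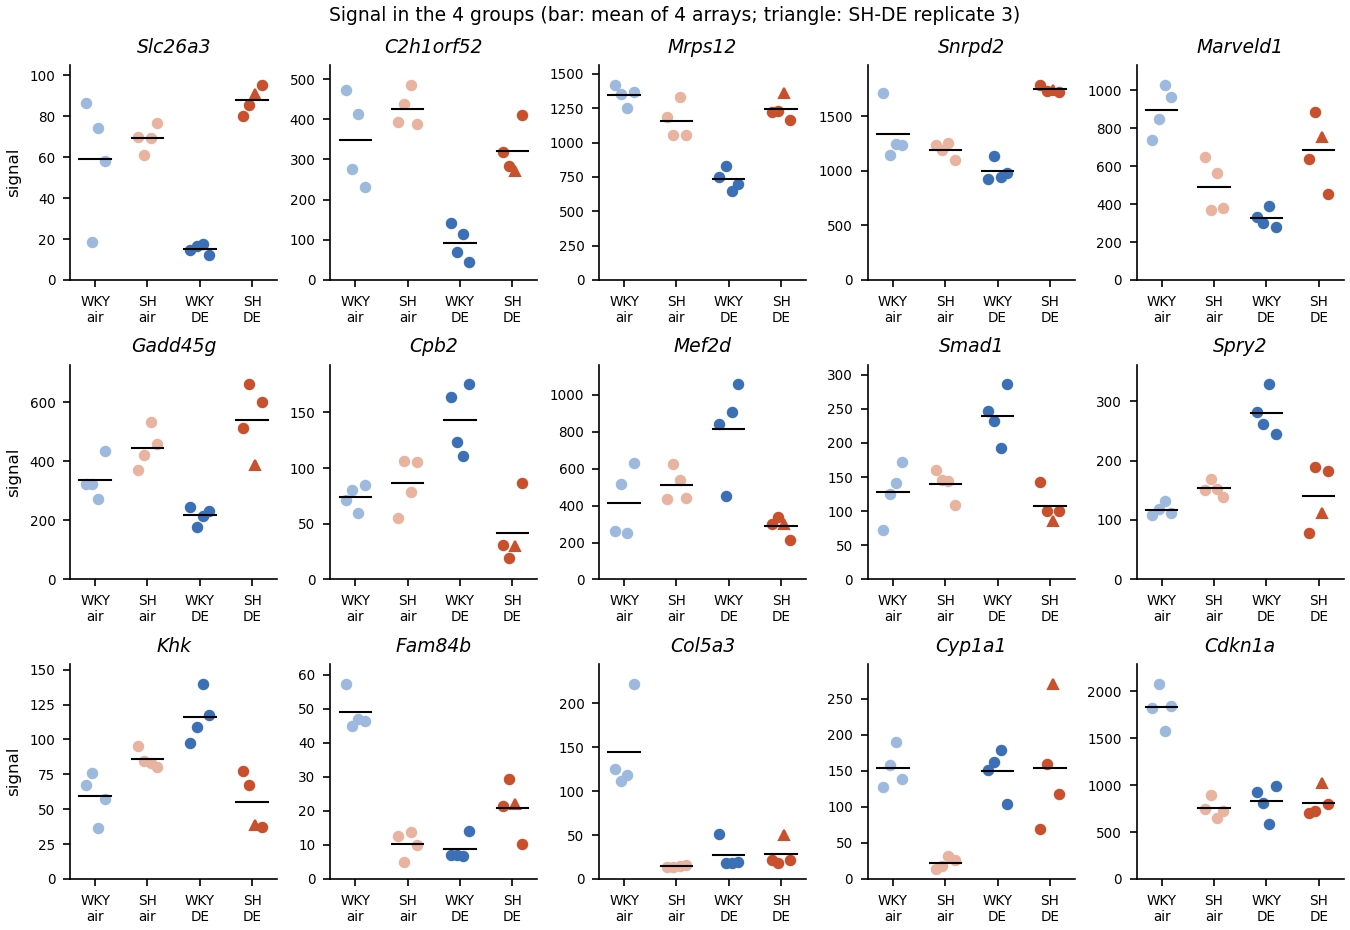
Signal of 15 genes on each of the 16 arrays, on linear axes from 0, in 4 groups of 4 with the group mean as a bar and SH-DE replicate 3 as a triangle. Mrps12 lies at 648 to 831 in WKY-DE and 1164 to 1361 in SH-DE, and Fam84b is high in WKY-air, at 44.8 to 57.3.

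A further set was apart in air and close under DE. Fam84b, a member of the lecithin retinol acyltransferase-like family, was at 44.8 to 57.3 in WKY-air and 5.05 to 13.8 in SH-air (log2 difference −1.30, adjusted p = 0.000783). Under DE it was at 7.03, 6.96, 6.72 and 14 in WKY and 21.3, 29.4, 21.9 and 10.2 in SH (log2 difference 0.55, adjusted p = 0.158). The difference between settings was 1.86 (SE 0.24, adjusted p = 0.02), with most signals near the offset. Col5a3, a fibrillar collagen chain, differed by −2.33 in air and 0.05 under DE, where its signals were 50.7, 18.5, 18.5 and 19.7 in WKY and 21.2, 18.4, 50.5 and 21.8 in SH. Tes, a protein of focal adhesions, differed by −1.61 and 0.45. The adjusted p of the difference between settings was 0.077 for Col5a3 and 0.077 for Tes.

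Cdkn1a, the p53-responsive cell cycle inhibitor p21, was at 922, 806, 590.5 and 988 in WKY-DE and 702, 719, 1018 and 803 in SH-DE, groups that overlapped (log2 difference −0.02, adjusted p = 0.975). In air it was called lower in SH (log2 difference −1.27, adjusted p = 0.00115). Another Cdkn1a probe set was also called in air, and under DE its groups were less close. On the scale between the strains in air, its WKY-DE positions were 43.8, 68.3, 86.4 and 69.5%. Its SH-DE positions were 101.2, 86.0, 92.0 and 96.4%, so the groups overlapped only by WKY-DE replicate 3 and SH-DE replicate 2. None of the 8 measured genes of the aryl hydrocarbon receptor response was called under DE. Cyp1a1, its best known target, named after its values were seen, was at 152, 163, 179 and 104 in WKY-DE and 68.8, 159, 271 and 118 in SH-DE, with a log2 difference of −0.07 (adjusted p = 0.937). In air it was 128, 158, 189.6 and 139 in WKY and 13.6, 18, 32.3 and 25.7 in SH (log2 difference −2.15, adjusted p = 0.00115). The adjusted p of the difference between settings was 0.123 for the first Cdkn1a probe set and 0.142 for Cyp1a1.

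Several genes of vascular and stress biology were not called under DE. Hmox1, heme oxygenase 1, differed by 0.54 (adjusted p = 0.306), Edn1, endothelin 1, by −0.69 (adjusted p = 0.137), and Nos3, the endothelial nitric oxide synthase, by −0.32 (adjusted p = 0.365). Sln, the atrial calcium pump regulator sarcolipin, was at 139.9, 76.6, 2748 and 801 in WKY-DE and 92.4, 422, 2668 and 9.59 in SH-DE, with the highest value of each group on replicate 3, as for Myl7. Aco1, Tgfb1, Il2ra and Il2rg lay between −0.32 and −0.03. Rbm3, a cold-inducible RNA binding protein, differed by −0.75 with all arrays and by −0.92 (adjusted p = 0.0323) without SH-DE replicate 3. Sesn1, a p53-responsive stress gene, differed by 0.50 and 0.67 (adjusted p = 0.0471), and Myh7, the slow myosin heavy chain, by −0.78 and −0.96 (adjusted p = 0.00576). These last 3 were called without that array and not with all 16.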

How the data were processed

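Gene expression was measured in left ventricle with septum from 16 male rats, 4 in each of 4 groups, on 1 array (Affymetrix Rat 230A) per rat. The RNA was extracted with TriReagent and cleaned on RNeasy columns. The deposited values were intensity, on a linear scale, extracted by the authors with Microarray Suite 5.0 (MAS5) at default settings, whereas the gene lists of the study were made from RMA values, which were not used here. Each array had a trimmed mean (2% cut at each end) of 500.2. The number of arrays limits the precision.

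Deposited signals were put on a log2 scale as log2(signal + 16.1), where 16.1 is the 10th percentile of all values and at most 12.5% of an array lay below it. One model of 16 arrays with 4 group means was fitted with limma 3.58.1 in R 4.3.3 (residual df 12, prior df 2.68, median SE of the DE strain difference 0.209). P-values were adjusted by Benjamini-Hochberg over 15866 probe sets after 57 controls were left out. GEO's platform annotation, updated through Entrez identifiers for 12748 probe sets, gave 1 gene to 12783, several to 312 and none to 2771. Lists and gene counts used the probe set of highest mean signal per gene.

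The text names the 15 largest called differences per direction with groups apart, up to 4 genes of lowest p per list, the 5 lowest p per direction in the difference between settings, the 5 called genes per direction with the smallest ratio of air to DE difference, and genes the paper names. Members and lists were chosen with earlier results of these data known. Same-numbered arrays did not deviate together (r = −0.0488 to 0.00473 over 4 pairs of deviations), so the numbers were not taken to pair rats. The code was tested on simulated data. Alternatives varied the offset, normalization, filter, moderation, array weights, model and arrays. Promoters were taken from RefSeq.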

Additional observations from a re-analysis of the deposited data

Results flagged for a closer look

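With the position between the strains counted once, 148 groups of 4 values were checked, and 15 held an array whose gap to its nearest neighbour took up more of the range than Dixon's 95% limit for 4 values allows, which chance gives in about 1 of 20 groups, or 7.4 here. Of the 15, 7 were SH-DE replicate 3. Its median position was 50.5% over the probe sets called in air with no overlap, and 54.8% and 53.3% over 2 nested subsets, the 84 of lowest p and the 71 brighter ones among them. Its signal was 643 for Creg1, 243 for RT1-CE16, 2139 for Rras2 and 703 for Sesn1, all lowest in SH-DE, and 70.5 for RT1-CE5 and 50.5 for Col5a3, highest in SH-DE.

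Other arrays that stood apart were WKY-DE replicate 1, at 50.7 for Col5a3, 693 for Homer2 and 443 for Scn1a, WKY-DE replicate 3, at 1112 for Isca1, and WKY-DE replicate 4, at 14.0 for Fam84b. SH-DE replicate 2 stood apart at 1855 for Isca1, 105 for Msra and 161 for Nos3. The signed strain difference of Fam84b (SH minus WKY) went from −1.30 in air to 0.55 under DE, a change of 1.86 on the log2 scale (adjusted p = 0.02 in limma), and was smaller in size under DE.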

How the results depend on the processing

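Under the settings tried, none of the 58 called strain differences of named genes under DE turned direction, but 44 lost the call with the compared groups alone, 28 at an adjusted p under 0.01, and 22 each with the replicate block and with the atrial covariate. The filter on dim probe sets tested 47 of the 58. With all 16 arrays 90 probe sets were called under DE, 401 in air, 42 in both, 1 in the difference between settings, and 16 list genes under DE. In that order the counts were 40, 84, 20, 0 and 10 at an adjusted p under 0.01. Without the dimmest 40% of probe sets they were 209, 630, 95, 2 and 34, and with an intensity trend and robust moderation 194, 620, 93, 2 and 35. With the atrial marker mean as a covariate they were 51, 7, 5, 0 and 10. An offset of 62.5 gave 141, 65, 4 and 27 under DE, in both, in the difference and in the lists. Array weights gave 224, 81 and 36 under DE, in both and in the lists. With the compared groups alone, the counts under DE, in air, in both and in the lists were 19, 135, 8 and 7. Without both DE arrays numbered 3, both gave 70, the difference 0 and the lists 27. The difference gave 6 after quantile normalization and 0 at an offset of 1. The replicate block, for numbers that did not pair the rats, gave 46 under DE, 242 in air and 0 in the difference. The cause of these shifts was not tested. Leaving out each array in turn gave 47 to 166 under DE, 197 to 452 in air, 26 to 84 in both, 0 to 6 in the difference and 10 to 28 in the lists. Differences that were not called turned sign in 5 genes. With 1 array left out at a time, Cdkn1a ran from −0.17 to 0.08, Col5a3 from −0.17 to 0.28, Cyp1a1 from −0.37 to 0.21 and Sln from −1.99 to 0.24. In these runs Cdkn1a was at 0.04, 0.03 and 0.04 without SH-DE replicate 1, SH-DE replicate 2 and WKY-DE replicate 1, Col5a3 at −0.04 without WKY-DE replicate 2 or 3 and −0.02 without WKY-DE replicate 4, Cyp1a1 at 0.01 and Sln at 0.07 without WKY-DE replicate 3. Col5a3 was at −0.18 with array weights and −0.25 without both arrays numbered 3, and Cyp1a1 at 0.08 after quantile normalization. With the atrial covariate Cyp1a1 was at 0.12, Myl7 at 0.42 and Sln at 0.83.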
